A study of Homo sapiens with 2 samples.

Results

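Keratin genes were examined in MDA-MB-231, an established cell line from a human triple-negative breast tumour that looks mesenchymal in culture, grown in high-glucose DMEM with serum. One group was a stable derivative transfected with a pLKO.1-shSREBP vector and labelled SREBP1 KD, SREBP1 being a transcription factor of lipid synthesis. The other was a stable derivative transfected with the pLKO.1 vector, with shNC in its sample title, and labelled control. Each was measured on 1 array, and no label used here says whether a derivative was a clone or a pool of cells. The members were the protein-coding probe sets that name 1 gene with a symbol of KRT, a number and at most a letter from A to C, which gave 49 probe sets of 48 genes among 70523 probe sets in all, 18215 of them protein-coding with 1 gene named. A reference list of RefSeq held 55 such keratin genes, and the remaining 7 (KRT6A, KRT6B, KRT17, KRT34, KRT81, KRT82 and KRT86) were not analysed here, KRT34 because its probe set names a further gene.

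Keratins are the intermediate filament proteins of epithelial cells. A filament is built from obligate pairs of a type I (acidic) and a type II (basic to neutral) keratin, and the pair in use marks the kind of epithelium: KRT8 with KRT18, and often KRT7 and KRT19, in simple epithelia such as the luminal layer of the breast, KRT5 with KRT14 in basal cells of stratified epithelia and in the basal layer of the breast, and a separate set of hard keratins in the hair shaft. Mesenchymal cells build their filaments mainly from vimentin, and carcinoma cells of mesenchymal form often carry vimentin together with simple keratins.

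Values are RMA log2 signals, so that a step of 1 is a 2-fold change. Signals of different probe sets are not on a common scale. They are set here against a floor that itself comes from other probe sets, so levels are approximate. A sum over genes and the choice of list members by mean signal share this limit. The floor, 3.21 log2 units, is the 95th percentile over 359 olfactory receptor genes, by mean signal, a class this line should not express, and a probe set counted as above it when the higher of its values was. With 1 array per group there is no spread between replicates and no test. Each difference is the array labelled knockdown minus the control array, and is given beside the SD of the differences of all 13962 protein-coding probe sets above the floor, which was 0.18 log2 units around a median of 0.017, or beside the SD of the 500 such probe sets nearest in signal (the local SD). SREBF1, the gene of SREBP1, read 5.29 on the array labelled knockdown and 5.13 on the control array. Its RNA was thus not lower on the array that carries the knockdown label, and every direction below refers to that label.

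Marker lists were read beside the line's label. Because 76.7% of all protein-coding probe sets were above the floor, a count above it does not by itself mark a cell type. Of 9 mesenchymal markers measured, 7 were above the floor (AXL, CD44, FN1, SNAI2, SPARC, VIM and ZEB1), while CDH2 and TWIST1 were under it. Of the 7, 4 were higher and 3 lower on the array labelled knockdown, beside 53.0% and 40.2% of protein-coding probe sets above the floor. FN1 (fibronectin) was the 1 beyond 1.5-fold, at 6.06 on the array labelled knockdown and 7.32 on the control array, a difference of -1.27. Among the protein-coding probe sets above the floor, 0.745% were lower by at least 1.5-fold. Of 10 luminal epithelial markers that are not keratins, 8 were above the floor, although CDH1 (E-cadherin) read 3.16 on the array labelled knockdown and 3.32 on the control array, and ESR1 and ESRP1 were under it. Leukocyte and endothelial markers were above the floor in 4 of 6 and 3 of 4 genes, and the lists held both high and low values. CD68, a lysosomal protein abundant in macrophages, read 8.85 on the array labelled knockdown and 8.64 on the control array. PTPRC, the pan-leukocyte CD45, read 2.04 on both arrays, and PECAM1 read 2.38 on the array labelled knockdown and 2.74 on the control array. Markers of basal or myoepithelial cells were above the floor in 6 of 6 genes, of keratinocytes in 4 of 10 and of the hair cortex in 5 of 6. In these 3 lists, FLG on the array labelled knockdown was the one value over 2 log2 units above the floor.

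The promoters of the keratin genes were read for 3 short motifs. RefSeq promoters (GRCh38.p14, 250 bases before to 50 after the start of a gene) were available for 34 keratin genes. The letters TATAAA, searched on both strands, occurred in the promoters of 21 of these 34 genes (61.8%), against 14.0% of 27305 genes with a promoter. They were present in 11 of 14 hair shaft genes, 6 of 8 genes of the inner root sheath and companion layer, 3 of 7 genes of stratified differentiation and neither of the 2 simple keratin genes, KRT8 and KRT20. The GC box GGGCGG was present in 6 of the 34 (17.6%), against 48.3% of all genes. TCACNCCAC, a form of the sterol regulatory element that SREBP proteins bind, occurred in 0 of the 34, against 1.39% of all genes. A match, or its absence, describes only the letters of these windows, and in the windows printed no matches overlap. Below are the only promoter window listed for KRT8 and those of KRT33A and KRT33B. KRT8 is the one gene among the well-detected keratins with an entry, and any other start of it was not read. KRT33A and KRT33B are neighbouring hair keratin genes with close values on each array. The capitals mark TATAAA, and no GC box lies in these windows. They lie at chr12:52926420-52926719, chr17:41350779-41351078 and chr17:41369764-41370063, all on the minus strand, and are written 5′ to 3′.
KRT8: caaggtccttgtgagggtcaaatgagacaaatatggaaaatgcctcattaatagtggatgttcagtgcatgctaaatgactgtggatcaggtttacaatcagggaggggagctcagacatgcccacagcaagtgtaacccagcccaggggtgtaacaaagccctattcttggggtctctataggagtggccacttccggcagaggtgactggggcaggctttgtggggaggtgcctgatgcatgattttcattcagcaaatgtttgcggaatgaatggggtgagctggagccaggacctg
KRT33A: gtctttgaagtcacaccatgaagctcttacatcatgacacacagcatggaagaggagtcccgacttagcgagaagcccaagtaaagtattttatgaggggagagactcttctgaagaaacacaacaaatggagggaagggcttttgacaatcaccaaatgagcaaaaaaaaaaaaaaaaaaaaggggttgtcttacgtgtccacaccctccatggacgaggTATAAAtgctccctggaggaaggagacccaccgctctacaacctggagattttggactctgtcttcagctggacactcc
KRT33B: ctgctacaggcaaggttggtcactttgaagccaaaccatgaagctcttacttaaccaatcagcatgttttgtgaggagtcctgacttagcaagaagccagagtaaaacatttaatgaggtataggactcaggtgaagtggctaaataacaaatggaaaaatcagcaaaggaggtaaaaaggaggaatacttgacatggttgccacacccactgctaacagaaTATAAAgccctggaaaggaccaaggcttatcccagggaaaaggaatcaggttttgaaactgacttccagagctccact
The TATAAA letters begin 29 bases before the start in KRT33A and 28 in KRT33B. Read base against base with no gaps, the windows of these 2 genes were identical at 92 positions (30.7%), which an offset between them would lower.

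Of the 49 keratin probe sets, 35 were above the floor (71.4%), against 76.7% of all protein-coding probe sets. Most of these lay low: 11 were above a floor raised by 1 log2 unit, and 6 above one raised by 2 or by 3. The 6 were the probe sets of KRT7, KRT8 (a pair of them), KRT18, KRT19 and KRT80. By class, 5 of 7 simple, 3 of 3 basal, 2 of 2 activation-associated, 6 of 9 stratified differentiation, 4 of 9 inner root sheath and companion layer, 11 of 13 hair shaft and 4 of 6 other epithelial probe sets were above the floor. Raised by 2 log2 units, the floor left 5 simple and 1 other epithelial probe set (KRT80), and no basal or hair shaft one. The counts above the floor by themselves thus did not separate hair from simple keratins. The raised floors were chosen after seeing the data, so what passed them does not test a separation of the classes. The simple keratins KRT20 and KRT23 were under the floor itself.

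**Figure D1:**
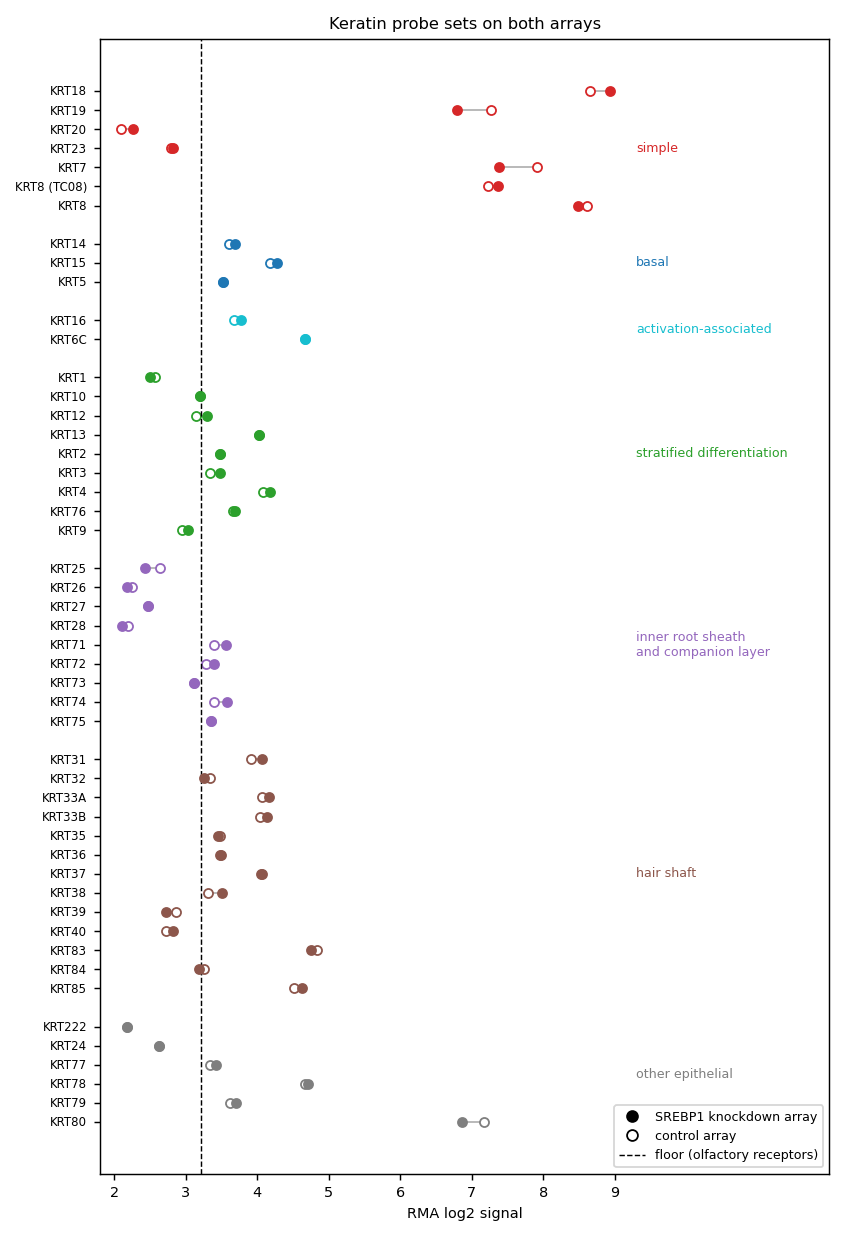
RMA log2 signal (x axis) of each of the 49 keratin probe sets (y axis, grouped by class), with the array labelled SREBP1 knockdown as filled and the control array as open circles, and the floor of 3.21 as a dashed line. KRT7, KRT8, KRT18, KRT19 and KRT80 lie far to the right of the floor, and the other members lie less than 2 log2 units above it or under it on both arrays.

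Among the simple keratins the members did not move one way. KRT7, a type II keratin of ducts and glands, read 7.38 on the array labelled knockdown and 7.92 on the control array. That is a difference of -0.54, or 1.45-fold lower, 2.9 times the local SD in size. It was the lowest difference of all keratins and lay at the 0.935th percentile of the protein-coding probe sets above the floor.

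KRT19, the smallest keratin, a type I protein without the usual tail domain, read 6.80 on the array labelled knockdown and 7.26 on the control array. The difference of -0.46, or 1.38-fold lower, was 2.3 times the local SD in size. KRT7 and KRT19 were thus lower by similar amounts on the array labelled knockdown.

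KRT18, the type I partner of KRT8, went the other way, at 8.93 on the array labelled knockdown and 8.65 on the control array. It was 1.21-fold higher, a difference of 0.28 or 1.5 times the local SD. KRT8, the type II partner, had a pair of probe sets that disagreed in sign. TC12001539.hg.1 read 8.49 on the array labelled knockdown and 8.61 on the control array, a difference of -0.12. TC08000415.hg.1, whose identifier begins TC08 although RefSeq places KRT8 on chromosome 12, read 7.37 on the array labelled knockdown and 7.23 on the control array, a difference of 0.14. Both are smaller than their local SDs of 0.19 and 0.21, so no direction is given for KRT8. Processed copies of KRT8 and KRT18 are common in the genome and can share probes with them, which leaves the values of both genes uncertain. The pseudogene probe sets on the array also differed among themselves, with KRT8P11 at 0.11, KRT8P41 at 0.064 and KRT8P12 at -0.19 log2 units, and KRT18P55 at 0.10 and KRT18P52 at 0.33.

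The last of the simple keratins, KRT20 of intestinal and urothelial cells and KRT23, were under the floor on both arrays. KRT20 read 2.26 on the array labelled knockdown and 2.10 on the control array, and KRT23 read 2.83 on the array labelled knockdown and 2.79 on the control array. The median difference of the 5 simple probe sets above the floor was -0.12 log2 units, and subtracting a signal-dependent curve made it -0.19. Of the 5, 2 were higher and 3 lower, beside 53.0% and 40.2% of all protein-coding probe sets above the floor. The 2 higher were KRT18 and the KRT8 probe set that begins TC08. The median is the value of the other KRT8 probe set.

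KRT80, a type II keratin counted here with the other epithelial keratins, read 6.86 on the array labelled knockdown and 7.17 on the control array. It was 1.23-fold lower, a difference of -0.30 or 1.6 times the local SD in size. KRT80 lies next to KRT7 at one end of the type II gene cluster, and both were lower. KRT8 and KRT18 are neighbours at the other end, where KRT18 was higher.

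A difference of at least 0.32 log2 units in size, a ratio of 5 to 4, was used as the smaller of the thresholds. Across the keratins above the floor, 2 of 35 (5.71%) were lower by that much, KRT7 and KRT19, beside 4.27% of all protein-coding probe sets above the floor. None was higher by as much, beside 3.27%. At 1.5-fold there was no keratin in either direction, beside 0.745% lower and 0.265% higher, and the same held at 2-fold, beside 0.129% lower and 0.0215% higher. The counts over the whole family were therefore near the background. Of the 6 probe sets with a mean over 2 log2 units above the floor, the same 2 were lower by at least 0.32 log2 units, beside 5.06% of the 7771 protein-coding probe sets of that range. None of the 6 was higher by as much, beside 4.36%. That subset was set after the values were seen.

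**Figure D2:**
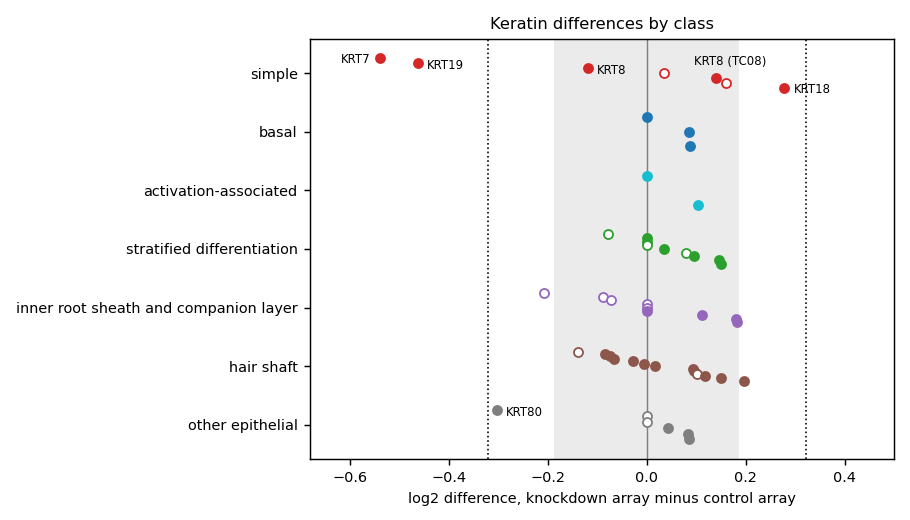
Log2 difference of the array labelled knockdown minus the control array (x axis) for the keratin probe sets by class (y axis), filled when above the floor and open when under it. The grey band is 1 SD (0.18) of all protein-coding probe sets above the floor, and the dotted lines mark 0.32 log2 units in either direction. KRT7 and KRT19 lie beyond the left line, KRT80 and KRT18 just inside the lines, and nearly all others in the band.

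Basal keratins lay low, and each differed by less than its local SD. KRT5, the type II keratin of basal cells, read 3.51 on both. KRT14, its type I partner, read 3.69 on the array labelled knockdown and 3.61 on the control array. KRT15, a type I keratin of basal and hair follicle stem cells, read 4.27 on the array labelled knockdown and 4.19 on the control array. The differences of KRT14 and KRT15 were 0.087 and 0.085 log2 units, against local SDs of 0.16 each, and the median of the 3 genes was 0.085. KRT17, a further basal keratin, was not analysed here.

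Keratins that appear in activated, wound-edge keratinocytes gave a similar picture. KRT16 read 3.78 on the array labelled knockdown and 3.67 on the control array, a difference of 0.10. KRT6C read 4.66 on both arrays. KRT6C is nearly identical to KRT6A and KRT6B, so its probes may also report those genes.

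Keratins of differentiating stratified epithelia were above the floor in 6 of 9 genes, with differences between 0 and 0.15 log2 units. The corneal pair KRT3 and KRT12 read 3.48 and 3.29 on the array labelled knockdown, against 3.34 and 3.14 on the control array, where KRT12 was under the floor. The mucosal pair KRT4 and KRT13 read 4.18 and 4.03 on the array labelled knockdown, against 4.08 and 4.03 on the control array, KRT13 being equal on both. KRT2 of the upper epidermis read 3.48 on both arrays, and KRT76 of the oral palate read 3.69 on the array labelled knockdown and 3.66 on the control array. The epidermal pair KRT1 and KRT10 and the palm and sole keratin KRT9 were under the floor on both arrays, KRT10 by less than 0.01 at 3.20 on both arrays. None of the class differed by 0.32 log2 units.

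Keratins of the inner root sheath, the sleeve around a growing hair, and of its companion layer had the highest median difference of the classes, 0.15 log2 units over the 4 members above the floor. KRT71 read 3.57 on the array labelled knockdown and 3.39 on the control array. KRT74 read 3.58 on the array labelled knockdown and 3.40 on the control array, and KRT72 read 3.39 on the array labelled knockdown and 3.28 on the control array. These 3 genes are neighbours in the type II cluster. KRT75, of the companion layer, read 3.36 on both arrays. KRT25, KRT26, KRT27, KRT28 and KRT73 were under the floor on both arrays. The largest of these differences, 0.18 for KRT74, was 1.2 times the local SD.

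Hair shaft keratins were above the floor in 11 of 13 probe sets. Of these, 6 were higher and 5 lower on the array labelled knockdown, beside 53.0% and 40.2% of all protein-coding probe sets above the floor. The median difference was 0.017 log2 units, close to the 0.017 of all protein-coding probe sets. Among type I members, KRT38 had the largest difference, 0.20 log2 units, at 3.51 on the array labelled knockdown and 3.31 on the control array. KRT31 read 4.06 on the array labelled knockdown and 3.91 on the control array. KRT33A read 4.16 on the array labelled knockdown and 4.07 on the control array, a difference of 0.093. Its neighbour KRT33B read 4.14 on the array labelled knockdown and 4.04 on the control array, a difference of 0.095. These neighbouring paralogues, whose promoters are printed above, may share probes, and their values are not counted as independent.

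The other type I hair keratins were as follows. KRT37 read 4.07 on the array labelled knockdown and 4.06 on the control array. KRT32 and KRT35 were at 3.26 and 3.45 on the array labelled knockdown, against 3.34 and 3.48 on the control array. For KRT36 the values were 3.48 on the array labelled knockdown and 3.49 on the control array. KRT39 and KRT40 were under the floor, with differences of -0.14 and 0.10. Of the type II members, KRT83 read 4.75 on the array labelled knockdown and 4.83 on the control array. KRT85 read 4.63 on the array labelled knockdown and 4.51 on the control array. KRT84 read 3.19 on the array labelled knockdown and 3.25 on the control array, and so was above the floor on the control array alone. Their differences ran from -0.084 to 0.12 log2 units. KRT81 and KRT86, close relatives of KRT83, were not analysed here, and its probes may report them too. Of the hair shaft probe sets, none differed by 0.32 log2 units in either direction.

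The remaining epithelial keratins other than KRT80 were likewise low. KRT78 read 4.71 on the array labelled knockdown and 4.67 on the control array, a difference of 0.044. KRT79 and KRT77, the second a keratin of sweat gland ducts, read 3.70 and 3.42 on the array labelled knockdown, against 3.62 and 3.34 on the control array. KRT24 and KRT222 were under the floor and had equal values on both arrays.

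**Figure D3:**
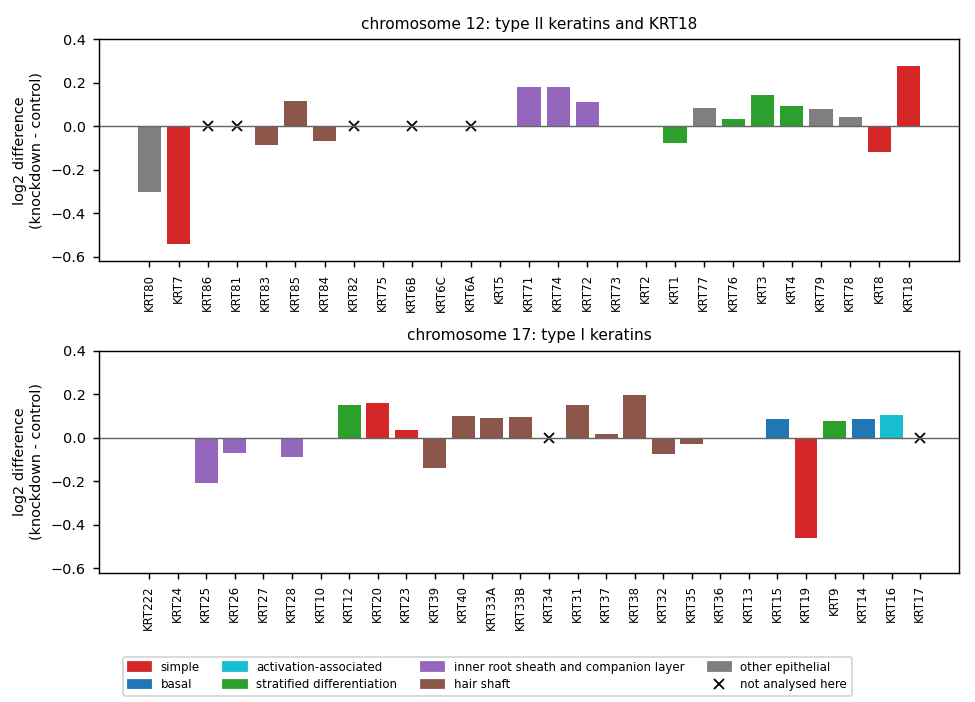
Log2 difference, knockdown minus control (y axis), of each keratin gene in its order along the clusters of chromosome 12 and chromosome 17 (x axis, equal steps), coloured by class, with a cross for the 7 genes not analysed here and no bar where both arrays were equal. For KRT8 the probe set with the higher signal is drawn. The bars over 0.25 in size belong to KRT80, KRT7, KRT18 and KRT19, at the ends of the type II cluster and near an end of the type I cluster.

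By type, 10 of 15 type I probe sets above the floor were higher, 4 were lower and the median was 0.087 log2 units. Of 20 type II probe sets 11 were higher, 5 were lower and the median was 0.039. Over all 35 the median difference was 0.082, with 21 higher (60.0%), 9 lower and 5 equal, and the mean was 0.022. Of all protein-coding probe sets above the floor 53.0% were higher and 40.2% lower. The share of keratins that were higher thus lay near the background, while fewer were lower and more were equal (14.3% beside 6.84%). Of the 33 keratin probe sets above the floor on both arrays, 20 were higher (60.6%) and 8 lower (24.2%). Among all protein-coding probe sets above it on both, 52.9% were higher and 40.1% lower. The median of 0.082 came from the low members. Without the probe sets of KRT7, KRT8, KRT18, KRT19 and KRT80 it was 0.085 over 29, and for those 6 probe sets it was -0.21. The 6 include both KRT8 probe sets, of which the one that begins TC08 was higher.

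The genes that anchor keratin filaments to the cell edge were described from lists. In the hemidesmosome list, which holds the integrin and plakins that tie keratins to the basement membrane, 5 of 9 genes were measured and all 5 were lower on the array labelled knockdown, beside 40.2% of all protein-coding probe sets above the floor, with a median of -0.31 log2 units. DST, a plakin whose epithelial form links keratin to the hemidesmosome, read 6.88 on the array labelled knockdown and 7.57 on the control array, or 1.61-fold lower. ITGB4 and ITGA6, the chains of the hemidesmosomal integrin, differed by -0.44 and -0.31, PLEC (plectin) by -0.18 and the tetraspanin CD151 by -0.20. PLEC and CD151 were close in size to their local SDs of 0.19. The share lower by at least 1.5-fold was 1 of 5, DST alone, beside 0.745% of all probe sets. The list was chosen with earlier results of these data known, so these shares are not an independent comparison.

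Desmosome genes, which tie keratin filaments between cells, went both ways, with 5 of 11 higher, 6 lower and a median of -0.029. Of all protein-coding probe sets above the floor, 53.0% were higher and 40.2% lower. JUP (plakoglobin) was the 1 member beyond 1.5-fold, at 6.14 on the array labelled knockdown and 6.77 on the control array, a difference of -0.63. Among the protein-coding probe sets above the floor, 0.745% were lower by at least 1.5-fold. DSP (desmoplakin), which binds the filaments, differed by 0.22, DSG2 by -0.029 and PKP4 by 0.21. The cadherins DSG1, DSG3, DSG4, DSC1, DSC2 and DSC3 were under the floor on both arrays.

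Other intermediate filament genes had a median difference of 0.067 log2 units over 14 members, 9 higher and 5 lower, none beyond 1.5-fold. The shares of all protein-coding probe sets above the floor were 53.0% higher and 40.2% lower. VIM (vimentin), the main filament of mesenchymal cells, read 9.74 on the array labelled knockdown and 9.46 on the control array, or 1.22-fold higher. LMNB1, a nuclear lamin, read 6.96 on the array labelled knockdown and 7.46 on the control array. LMNB2, a further lamin, read 8.10 on the array labelled knockdown and 7.97 on the control array. Thus VIM and KRT18 were higher by similar amounts, 0.28 each, while KRT7 and KRT19 were lower. Subtracting the signal-dependent curve made the differences 0.20 each for VIM and KRT18, and -0.60 and -0.51 for KRT7 and KRT19.

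Assembly and turnover partners of keratins had 6 of 14 members higher and 8 lower, a median of -0.023 and none beyond 0.32 log2 units. The members of highest mean signal were TGM2, a transglutaminase, at -0.14, SFN (14-3-3 sigma) at 0.12 and YWHAZ (14-3-3 zeta), both proteins of the family that binds phosphorylated KRT18, at -0.055. Among transcription factors of epithelial and hair keratin genes, 10 of 19 were higher, 8 were lower, the median was 0.019 and none was beyond 1.5-fold. Beside the counts of both lists, 53.0% of all protein-coding probe sets above the floor were higher and 40.2% lower. EHF, an epithelial ETS factor, read 6.74 on the array labelled knockdown and 7.21 on the control array. SP1 differed by -0.020 and KLF5 by -0.034. TP63, the factor of basal epithelia, was not analysed here.

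Non-keratin luminal markers had 5 of 8 members lower and 2 higher, with a median of -0.061 log2 units, and none beyond 1.5-fold. Beside them, 40.2% of all protein-coding probe sets above the floor were lower and 53.0% higher. CDH1, among those lower, passed the floor through the control array alone. Their summed linear signal over 10 genes was 268.1 on the array labelled knockdown and 288.5 on the control array. Such a sum weighs members of high signal most. Of these, CLDN7 was lower, while EPCAM was equal on both arrays, CLDN3 differed by 0.037 and CLDN4 by -0.011. CLDN7, a claudin of tight junctions, had the lowest difference of the list, -0.39, at 5.74 on the array labelled knockdown and 6.13 on the control array. A part of this list in the lower values of KRT7 and KRT19 was not tested.

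Proteins that surround keratins in cornified and hair cells were described from a pair of further lists. In the cornified envelope list 7 of 9 genes above the floor were higher, beside 53.0% of all protein-coding probe sets above the floor, 1 was lower and the median was 0.075. FLG (filaggrin), which bundles epidermal keratins, read 5.23 on the array labelled knockdown and 4.56 on the control array, or 1.59-fold higher, the 1 member beyond 1.5-fold. LORICRIN differed by 0.013 and SPRR1B by 0.18, and IVL (involucrin) was under the floor.

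Keratin-associated proteins, the matrix in which hair keratins are embedded, were measured in 87 genes, of which 39 were above the floor. Of the 39, 30 were higher on the array labelled knockdown, 8 lower and 1 equal, and the median was 0.099 log2 units. A pair of those higher passed the floor through the array labelled knockdown alone. Of the 37 above the floor on both arrays, a criterion chosen after seeing the data, 28 were higher, 8 were lower and the median was 0.095, beside 52.9% of all protein-coding probe sets that passed it being higher. At 0.32 log2 units, 8 were higher (20.5%), beside 3.27% of all probe sets, and none lower, and none passed 1.5-fold. The members of highest mean signal were KRTAP5-11 at -0.093, KRTAP2-2 at 0.33 and KRTAP12-2 at 0.093. These genes come in families of near-identical copies and may share probes, so their values are not counted as independent. No 2 of the 39 had the same pair of values, but sharing of some probes was not tested. The hair shaft keratins themselves had a median of 0.017.

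**Figure D4:**
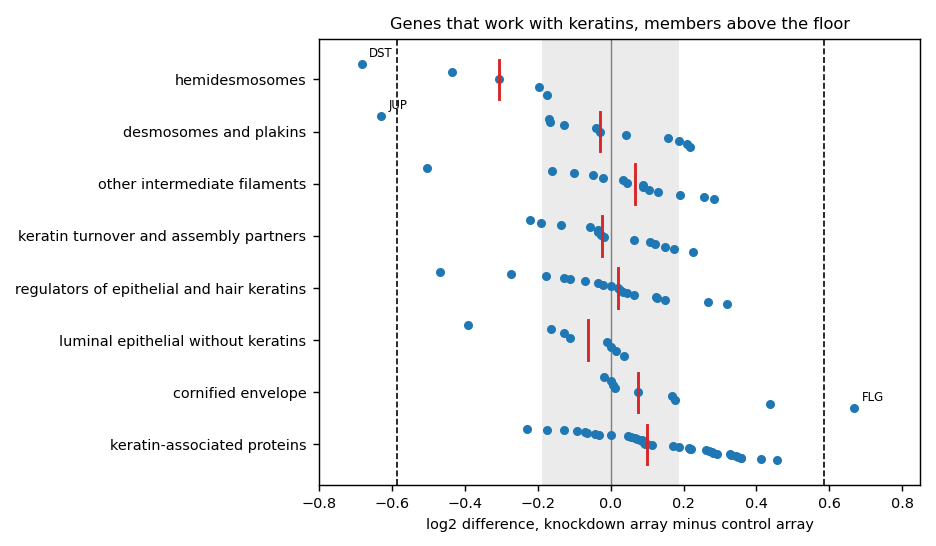
Log2 difference of the array labelled knockdown minus the control array (x axis) for members above the floor of 8 gene lists (y axis), with each list's median as a red line, the grey band as 1 SD of all protein-coding probe sets above the floor and dashed lines at 1.5-fold. DST and JUP lie beyond the left line and FLG beyond the right one, and the 5 hemidesmosome genes all lie below 0.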

How the data were processed

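RNA of 2 stable MDA-MB-231 derivatives, 1 array each, was measured. The deposited log2 signals came from RMA, and the submitters' processing notes name Affymetrix Expression Console. Its version was not given in the sources used here, nor was the build. RMA values are relative, and such arrays tend to compress fold changes. Depth does not apply to arrays, whose number limits the precision.

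Groups came from the genotype label. Probe sets were named through the platform annotation and RefSeq (GRCh38.p14). Of 70523, 23781 named 1 gene, 1543 several and 45199 were unnamed here. Members and lists were chosen with earlier results of these data known. All keratins above the floor were named, and from each list of keratin-related genes the members beyond 1.5-fold and up to 3 of the highest mean signal. Marker lists were described by counts, with single genes chosen after their values were seen. For lists, the probe set with the highest mean stood for a gene. The signal-dependent curve was a lowess fit (fraction 0.3) over protein-coding probe sets above the floor. Alternatives changed the floor, the centring, the threshold and the probe sets counted. The code was tested on simulated data. Tables were handled with pandas 2.3.3 and numpy 2.4.6 in Python 3.11.15, curves with statsmodels 0.14.6 and plots with matplotlib 3.10.9.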

Additional observations from a re-analysis of the deposited data

How the results depend on the processing

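The count of keratins lower by at least 0.32 log2 units was 2, and it was 3 after the signal-dependent curve was subtracted, which added KRT80 at -0.35 log2 units. At 1.5-fold and at 2-fold it was 0. Other floors, subtracting the median, averaging the probe sets of a gene or adding those of several genes left it at 2, and the count higher by 0.32 log2 units was 0 under every alternative run. The 35 keratins above the floor became 17 with the 99th percentile of the olfactory receptors, 38 with the 90th, and 11, 6 and 6 with the floor raised by 1, 2 and 3 log2 units, the last 3 chosen after seeing the data. The median difference of 0.082 ranged from 0 with the floor raised by 1 to 0.086 without probe sets of equal value, also chosen after seeing the data, and was 0.017 with no floor. It was 0.063 without the KRT8 probe set that begins TC08. Of 35 single differences, 30 kept their sign after either subtraction and the other 5 were 0 before it. The direction and size of none of these could be tested with 1 array per group, and no replicate could be left out. No paired analysis was possible because each group has 1 array.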

Other observations

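Exactly equal values on both arrays were found in 9 of 49 keratin probe sets (18.4%), beside 10.7% of all protein-coding probe sets. They were KRT2, KRT5, KRT6C, KRT13, KRT24, KRT27, KRT73, KRT75 and KRT222, named after their values were seen, and above the floor the shares were 5 of 35 (14.3%) and 6.84%.

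Keratins with a mean up to 1 log2 unit above the floor had differences with an SD of 0.079 log2 units over 24 probe sets, beside 0.16 over 3004 protein-coding ones. Their median difference was 0.086, beside 0.0068, and 16 of the 24 (66.7%) were higher on the array labelled knockdown, beside 50.8%.

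KRT10-AS1, the antisense neighbour of KRT10, read 5.75 on the array labelled knockdown and 5.83 on the control array, while KRT10 itself lay at the floor. The probe set of KRT34 and a further gene read 4.17 on the array labelled knockdown and 4.02 on the control array. Of 8 keratin-associated protein genes higher by at least 0.32 log2 units, 5 lie on chromosome 21 and 3 on chromosome 17, where 19 and 12 were above the floor, and none of 8 on chromosome 11 was. The highest, named after its value was seen, was KRTAP10-5 at 4.14 on the array labelled knockdown and 3.68 on the control array.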
